A study of Mus musculus with 12 samples.

Results

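Olfactory receptor genes on mouse chromosome 2 were examined in nucleosome maps of male germ cells. They were all RefSeq protein-coding genes of GRCm38/mm10 on that chromosome whose symbol is Olfr followed by a digit, 287 of 21887 protein-coding genes and of 1110 protein-coding olfactory receptor genes genome-wide. The cells came from testes of SV129 male mice of 8 to 12 weeks, with 11 animals pooled per collection, and were sorted by sedimentation to at least 85% purity. The fraction called M here carries the title meiotic spermatid, while the protocol calls it meiotic, so its exact stage is unsettled. The other is labelled round spermatid (RS), the haploid cells that follow meiosis. Each was digested with 0.5, 1 or 2 U of micrococcal nuclease (MNase) for 7.5 min, with 2 samples per stage and amount, 12 samples in all, and RS was digested with 2 times as many cells.

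Each of the 6 deposited lists of 140 bp nucleosome calls joins the 2 samples of its group. With 1 list per group there is no replicate error to test a difference with. The 3 amounts do not stand in for replicates, and an exact two-sided sign-flip test over them could not go below p = 0.25. Intervals are 95% Poisson intervals, or normal ones for log2 ratios. These allow for counting error and nothing else, and they are too narrow because neighbouring calls overlap and share reads. From 0.5 to 2 U the M lists were 42178, 60077 and 65614 calls long and the RS lists 179133, 41655 and 27101. The p-values deposited with the calls matched Poisson tails with a minimum of 6 reads, so a call is taken as a place with at least 6 reads (implied reads), and most calls stand at that minimum.

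Olfactory receptors are G protein-coupled receptors that detect odorants at the surface of sensory neurons in the nose, where each neuron uses a single receptor gene. Most have their whole coding sequence in a single exon, and they lie in tandem clusters. Chromosome 2 carries class II receptors, the larger class, which is typical of land vertebrates; the class I genes lie on chromosome 7. MNase digests the linker between nucleosomes, so that DNA held by histones is recovered, and it cuts DNA rich in A and T more readily.

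The 287 genes fell into 3 clusters when neighbours up to 500 kb apart were joined. Cluster 1, at chromosome 2 from 36375778 to 37333732, runs from Olfr338 to Olfr368 and holds 28 of the genes. Cluster 2, from 85329967 to 90402674, runs from Olfr987 to Olfr1274 and holds 222 genes over 5.07 Mb, together with 71 olfactory receptor pseudogenes and 3 other protein-coding genes (Fads2b, Pramel7 and Pramel6). Cluster 3, from 111229853 to 112158007, runs from Olfr1275 to Olfr1318 and holds 37 genes. The median gene body was 945 bp, and 242 genes had a body of at most 1100 bp. The longest was Olfr1280 with 60182 bp. Body lengths were multiples of 3 in 228 of the genes, so most models span the coding sequence without UTRs. Where RefSeq gives a start region (243 genes), 182 have ATG directly at the gene start, so those regions lie around the start codon and not necessarily around the start of transcription.

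Calls were counted where their midpoint lay in the gene body or within 1000 bp of it, and this stretch is called the window of a gene. The merged windows covered 1072 kb. M had 17, 40 and 23 calls there at 0.5, 1 and 2 U, and RS had 103, 17 and 5; values are given in this order throughout. Joined where midpoints lay within 73 bp, these were 13, 27 and 18 positions in M and 71, 13 and 3 in RS. The RS list at 0.5 U thus supplied about as many calls as the other 5 lists together; it is also the longest list. Per 100000 calls of a list, the windows had 40.3, 66.6 and 35.1 in M against 57.5, 40.8 and 18.4 in RS. Of the calls in windows, 80.0% to 82.6% in M and 80.6% to 100% in RS were at the minimum of 6 reads. Over whole lists this share was lower in each list, from 65.4% (M at 0.5 U) to 69.5% (RS at 0.5 U). Calls in receptor windows thus stood at the minimum more often than calls in general, and the difference was not tested.

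Against the mean of the 19 autosomes, call density in the windows was 0.967 (0.564 to 1.55), 1.57 (1.12 to 2.14) and 0.826 (0.524 to 1.24) in M. In RS it was 1.31 (1.07 to 1.59), 0.971 (0.565 to 1.55) and 0.450 (0.146 to 1.05). Receptor windows therefore stood above the autosomal mean, by their intervals, in M at 1 U and in RS at 0.5 U, and the interval of each other list included 1. In RS the density was lower at each higher amount, and 2 U over 0.5 U gave a log2 ratio of -1.51 (-2.75 to -0.27). That interval included 0 with joined positions (-3.07 to 0.03), without dense bins, 10 kb bins with more than 20 calls in a list (-2.47 to 0.0028), and without flanks, where the ratio was -0.42. Leaving out dense bins removed no call from the windows (205 over the 6 lists either way) and changed only the list totals. In M the order was not monotonic: 1 U was highest, and 2 U over 0.5 U gave -0.21 (-1.11 to 0.68). The mean read count of the matched Poisson tails also fell with the amount in RS, from 0.696 to 0.472 and 0.409. With the minimum fixed at 6 reads, the largest Poisson p-value of an RS call went from 8.7e-05 at 0.5 U to 4.6e-06 at 2 U. For M the mean rose, from 0.434 at 0.5 U to 0.507 at 2 U. The part of this limit in the densities of windows and clusters was not tested. The other 1495 protein-coding genes of chromosome 2 stayed between 0.646 and 0.774 in all 6 lists, and their RS ratio of 2 U to 0.5 U was -0.17 (-0.29 to -0.05). The AT content of the start regions (250 bp before to 50 bp after the gene start) differs between these sets, with a median of 67.3% in the receptors and 41.0% in the other chromosome 2 genes, and its part in the densities was not tested.

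The clusters as a whole, spaces between genes included, gave more calls and a clearer pattern. Over 6.96 Mb, M had 140, 220 and 182 calls and RS had 639, 101 and 27. Relative density was 1.23, 1.33 and 1.01 in M, and 1.26 (1.16 to 1.36), 0.889 (0.724 to 1.08) and 0.374 (0.247 to 0.545) in RS. RS at 2 U thus had the lowest density of the 6 lists, and its interval did not overlap those of the other 5. Sequence within 1000 kb beside the clusters was lower than the clusters in 5 of 6 lists, at 0.712, 0.668 and 0.648 in M and 0.761, 0.776 and 0.563 in RS, and higher than them in RS at 2 U. From 0.5 to 2 U the log2 ratio in RS was -1.81 (-2.37 to -1.26) in the clusters and -0.51 (-1.01 to -0.01) beside them. At 1 U over 0.5 U the RS ratio of the clusters was -0.55 (-0.85 to -0.25).

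**Figure D1:**
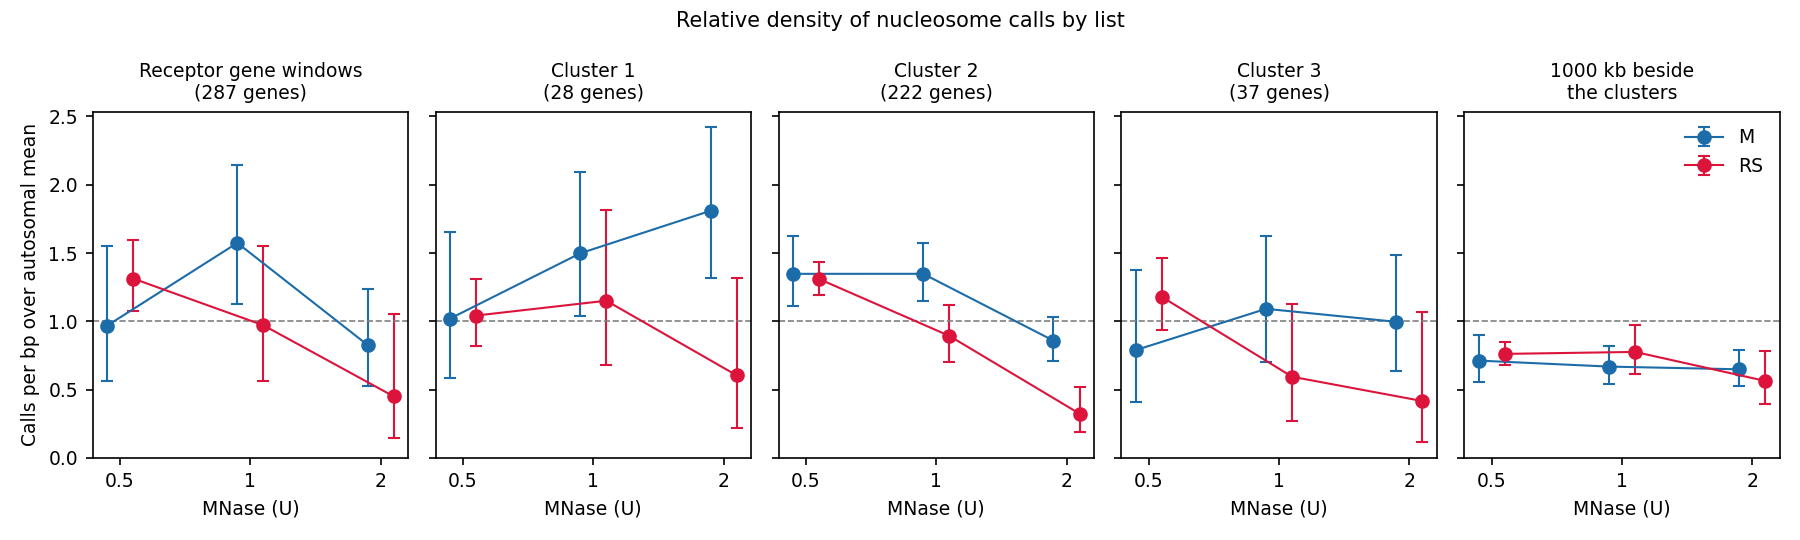
Calls per bp over the autosomal mean (y axis) by MNase amount in U (x axis) for M (blue) and RS (red), in receptor gene windows, the 3 clusters and, pooled over the clusters, the 1000 kb on each side of them; points are single lists, bars 95% Poisson intervals, and the dashed line is the autosomal mean. RS at 2 U is the lowest value in each panel, at 0.323 in cluster 2 and 0.563 in the pooled sides, while M in cluster 1 is highest at 2 U, at 1.81.

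The 3 clusters did not follow the same course in M. In cluster 1, M had 16, 34 and 45 calls, at relative densities of 1.02, 1.498 and 1.81, and RS had 73, 18 and 6, at 1.04, 1.15 and 0.604. In cluster 2, M had 112, 162 and 113 calls, at 1.35, 1.35 and 0.858, and RS had 486, 74 and 17, at 1.31, 0.893 and 0.323. M thus ran highest at 2 U in cluster 1 and lowest at 2 U in cluster 2. In cluster 3, M had 12, 24 and 24 calls, at 0.789, 1.09 and 0.996, and RS had 80, 9 and 4, at 1.18, 0.594 and 0.416. For 2 U over 0.5 U, M gave a log2 ratio of 0.83 (0.01 to 1.64) in cluster 1, -0.62 (-1.001 to -0.25) in cluster 2 and 0.33 (-0.65 to 1.32) in cluster 3. In RS all 3 ratios were negative, at -0.77 (-1.93 to 0.38), -2.07 (-2.76 to -1.38) and -1.44 (-2.81 to -0.07). The intervals of clusters 1 and 2 in M do not overlap, and no test of the difference between clusters was made. The start regions also differ between clusters, with a median AT content of 64.3% in cluster 1, 68.0% in cluster 2 and 66.3% in cluster 3, and the part of base composition was not tested.

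**Figure D2:**
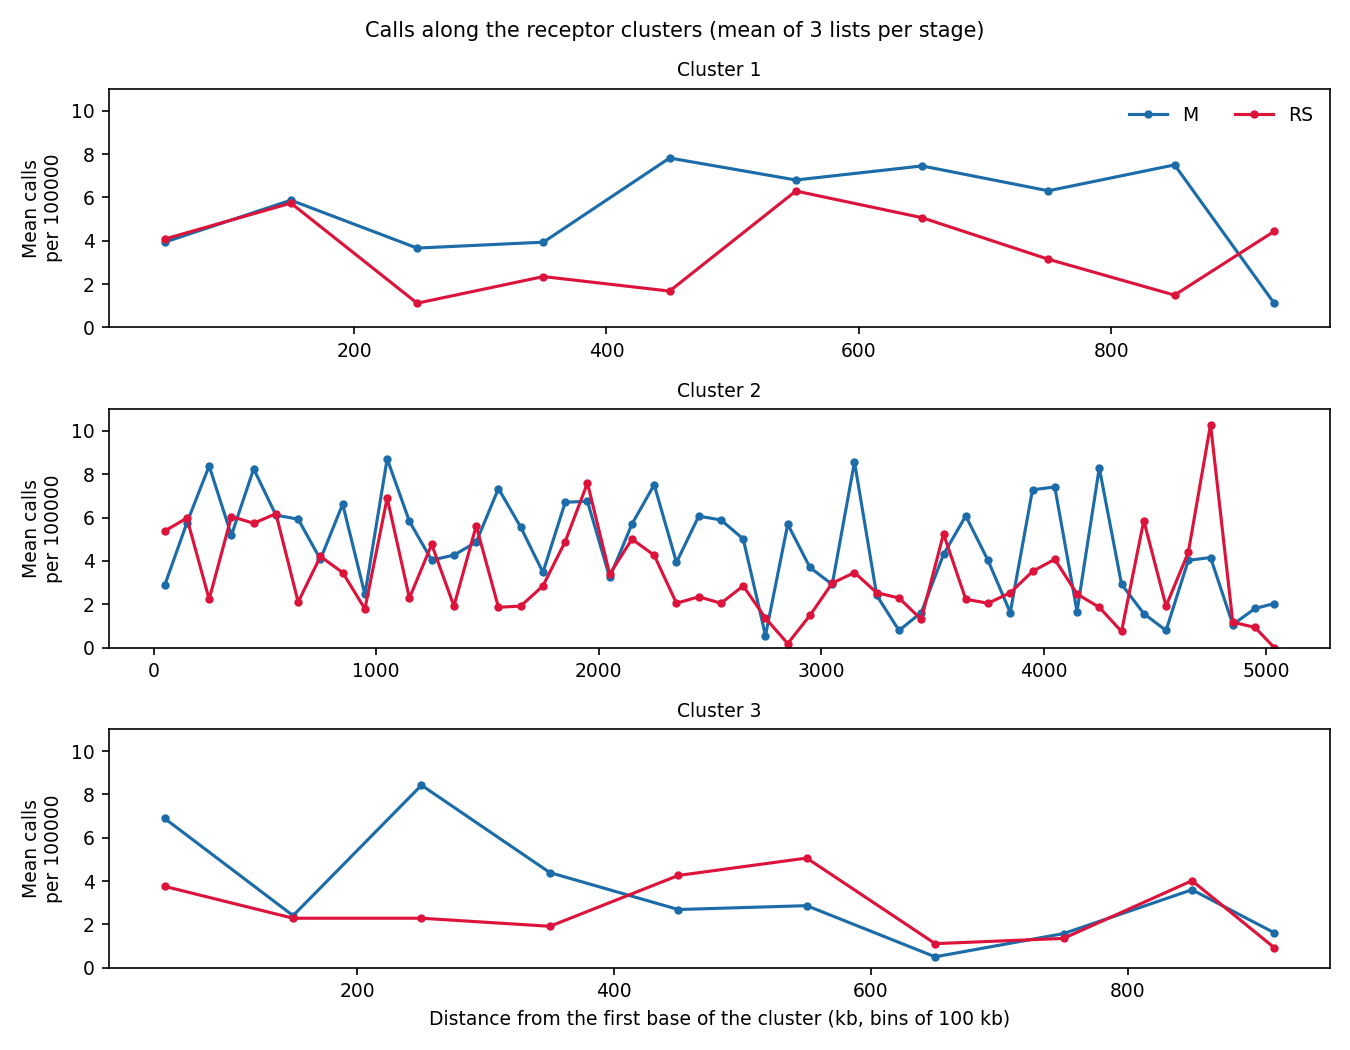
Mean calls per 100000 calls of the 3 lists of a stage (y axis; M blue, RS red) in bins of 100 kb along each cluster, by distance from its first base in kb (x axis). Calls are spread over each cluster, with a median of 19 calls per bin over the 6 lists, and M lies above RS in 44 of 71 bins.

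Calls were spread along the clusters and were not confined to a few places. Bins of 100 kb held between 4 and 35 calls over the 6 lists, with a median of 19. M had the higher mean rate in 8 of 10 bins of cluster 1, in 30 of 51 of cluster 2 and in 6 of 10 of cluster 3. None of the 4 dense bins of chromosome 2 lay in a cluster.

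Stages were compared at equal MNase amount as the log2 ratio of RS to M in calls per 100000. Over the receptor windows the 3 amounts gave 0.48, -0.68 and -0.82, with a mean of -0.34 (-0.92 to 0.23), so RS was higher at 1 of 3 amounts and the interval of the mean includes 0. Over the gene bodies without flanks they gave -0.24, -0.62 and -0.12, with RS higher at 0 of 3 amounts. The mean of the bodies was -0.33 (-0.98 to 0.32). Over the clusters the ratio was 0.10, -0.59 and -1.45, with a mean of -0.65 (-0.89 to -0.41). In the sequence between the windows the mean was -0.69 (-0.96 to -0.43), and beside the clusters it was 0.04 (-0.22 to 0.31). Without 2 U the cluster mean was -0.25 (-0.46 to -0.03), and without 0.5 U it was -1.02 (-1.36 to -0.69), so the size of the stage difference depended on the amount. At equal MNase per cell (RS at 1 U with M at 0.5 U, and RS at 2 U with M at 1 U) it was -1.15 (-1.49 to -0.81). Stage and extent of digestion cannot be told apart by these lists.

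Other receptor genes were set beside these as a description. The 239 olfactory receptor genes on chromosome 7 had a mean ratio of -0.77 (-1.38 to -0.16), and the 584 on the remaining chromosomes had -0.26 (-0.60 to 0.08). Counted over windows, all 3 sets were higher in RS at 0.5 U and lower in RS at 2 U. For 2 U over 0.5 U, RS gave -1.80 (-3.16 to -0.44) on chromosome 7 and -1.12 (-1.82 to -0.42) on the remaining chromosomes, and the intervals overlap with that of chromosome 2. In M the chromosome 7 genes held 17, 30 and 44 calls, most at 2 U, where chromosome 2 held most at 1 U. The 230 Vmn1r and 123 Vmn2r vomeronasal receptor genes had ratios of RS to M of -0.65 (-1.42 to 0.13) and -0.31 (-0.55 to -0.06). Their RS ratios of 2 U to 0.5 U were also negative, at -1.58 (-3.42 to 0.25) and -0.59 (-1.09 to -0.09). The 15 trace amine receptor genes (Taar) had 5 calls in all.

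**Figure D3:**
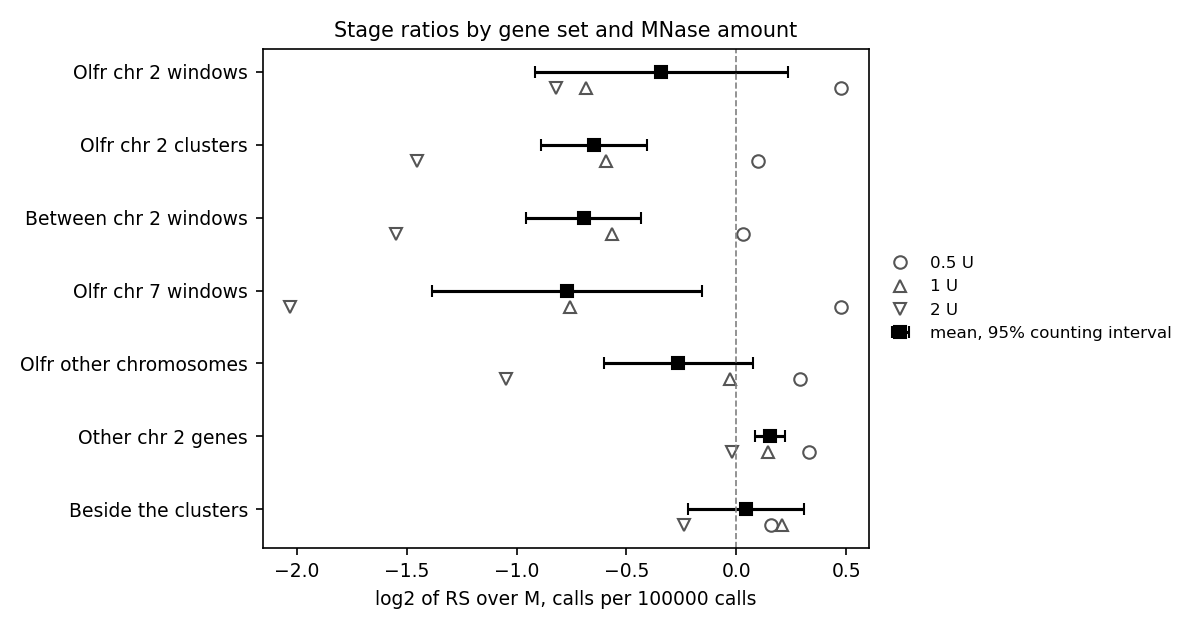
Log2 ratio of RS to M in calls per 100000 calls (x axis) for gene sets and regions (y axis); squares are means of 3 amounts with 95% counting intervals, and open symbols are single amounts. The chromosome 2 windows run from 0.48 at 0.5 U to -0.82 at 2 U, and other chromosome 2 genes stay between -0.02 and 0.33.

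Within the receptor genes, calls were denser over the gene body than beside it. This comparison was chosen after the data were seen and used the 242 genes with a body of at most 1100 bp. Their bodies covered 231 kb and held 7, 19 and 10 calls in M against 24, 8 and 2 in RS. The 484 kb within 1000 bp on each side held 2, 10 and 7 calls in M against 47, 7 and 0 in RS. Density was higher over the body in 6 of 6 lists, with intervals that did not overlap in M at 1 U and overlapped in the other 5. Over all lists it was 30.3 calls per 100 kb (23.6 to 38.2) in bodies and 15.1 (11.8 to 18.98) beside them, a ratio of 2.01 (1.44 to 2.78). The lists did not contribute alike: RS at 0.5 U was almost even, with 10.4 and 9.72 calls per 100 kb, and without it the ratio was 3.70. With joined positions the ratio was 2.05 (1.38 to 3.04), and with calls of more than 6 reads it was 1.61 (0.705 to 3.67). The spaces between windows held 18.8 calls per 100 kb (17.7 to 19.9).

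**Figure D4:**
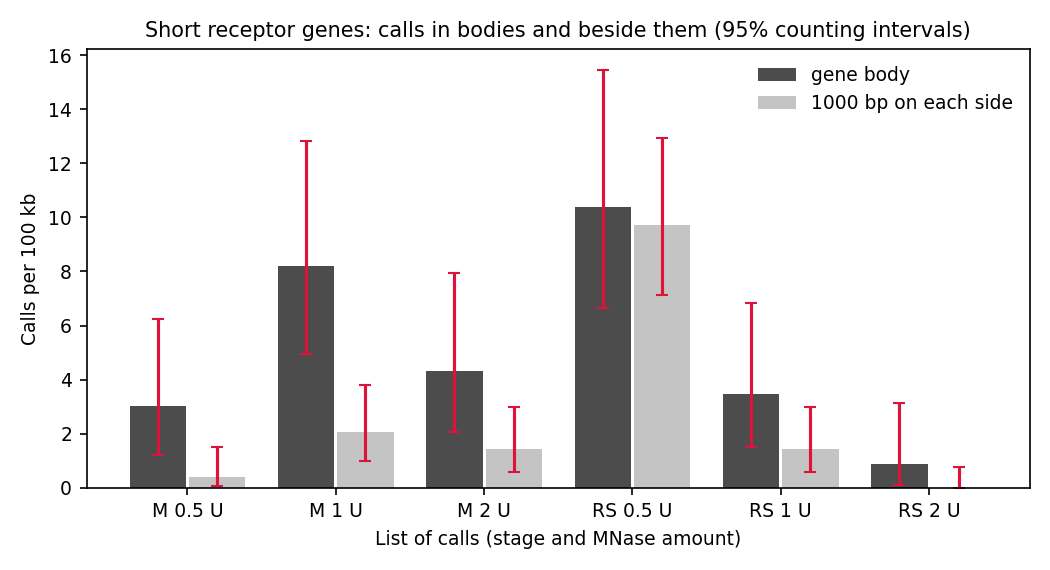
Calls per 100 kb (y axis) in the bodies of the 242 short receptor genes (dark) and in the 1000 bp on each side (light) in each list (x axis), with 95% Poisson intervals. Bodies are higher in each list, with 8.22 against 2.07 in M at 1 U and 10.4 against 9.72 in RS at 0.5 U.

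The same ratio was 1.77 (1.28 to 2.44) for the short olfactory receptor genes of chromosome 7 and 2.19 (1.76 to 2.72) for those of the remaining chromosomes. It was 1.39 (0.885 to 2.18) for short Vmn1r genes and 1.35 (1.05 to 1.75) for 687 other short protein-coding genes. The intervals of the chromosome 2 receptors and of the other short genes overlap, and the difference was not tested. Both sides were compared in the 201 short genes with a known strand. The upstream side held 29 calls, or 14.4 per 100 kb (9.66 to 20.7), and the downstream side 24, or 11.9 (7.65 to 17.8), so the intervals overlap. In the 182 start regions with ATG, the 250 bases before it had a median AT content of 69.2% and the 50 bases from it on 58.0%, lower in 167 of 182. Its part in the body density was not tested.

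The start regions themselves held few calls. Midpoints lay in 11 of 243 (4.53%), with 0, 4 and 2 calls in M against 10, 1 and 0 in RS, against 876 of 17492 (5.01%) for all protein-coding genes. Of the 11, 6 held 2 calls each. Shown here, as examples chosen after their values were seen, are Olfr1253 (RS at 0.5 U) and Olfr1289 (M at 1 U), whose call midpoints lay 9 to 39 and 5 to 25 bp after the gene start. Beside them is Olfr152 (RS at 0.5 U), whose midpoints lay 139 to 159 bp before it. Olfr1184, the receptor with the highest mean call rate, is shown as one whose calls begin just past its start region. The sequences are from RefSeq for GRCm38.p6, 5′ to 3′ on the strand of the gene, and capitals mark the bases covered by those calls (none in Olfr1184).
Olfr1253, chr2:89752777-89753076, minus strand: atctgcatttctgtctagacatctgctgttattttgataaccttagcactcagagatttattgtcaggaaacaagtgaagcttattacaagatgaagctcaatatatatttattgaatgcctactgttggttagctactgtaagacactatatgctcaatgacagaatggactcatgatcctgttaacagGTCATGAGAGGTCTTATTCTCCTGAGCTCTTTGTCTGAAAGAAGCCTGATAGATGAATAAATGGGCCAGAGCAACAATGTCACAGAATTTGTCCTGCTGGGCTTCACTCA
Olfr1289, chr2:111483182-111483481, plus strand: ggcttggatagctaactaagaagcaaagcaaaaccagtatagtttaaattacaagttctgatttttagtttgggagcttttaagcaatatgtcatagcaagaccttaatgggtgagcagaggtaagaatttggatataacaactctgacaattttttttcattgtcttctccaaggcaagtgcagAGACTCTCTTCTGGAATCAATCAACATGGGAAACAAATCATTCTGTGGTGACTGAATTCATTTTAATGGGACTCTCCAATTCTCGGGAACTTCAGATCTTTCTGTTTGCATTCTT
Olfr152, chr2:87782286-87782585, plus strand: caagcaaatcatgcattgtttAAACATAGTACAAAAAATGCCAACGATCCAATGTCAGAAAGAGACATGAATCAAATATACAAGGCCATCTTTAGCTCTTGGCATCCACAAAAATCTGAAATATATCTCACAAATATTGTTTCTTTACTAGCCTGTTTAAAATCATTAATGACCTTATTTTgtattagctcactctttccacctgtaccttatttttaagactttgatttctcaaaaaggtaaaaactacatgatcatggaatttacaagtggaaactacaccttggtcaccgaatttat
Olfr1184, chr2:88486484-88486783, plus strand: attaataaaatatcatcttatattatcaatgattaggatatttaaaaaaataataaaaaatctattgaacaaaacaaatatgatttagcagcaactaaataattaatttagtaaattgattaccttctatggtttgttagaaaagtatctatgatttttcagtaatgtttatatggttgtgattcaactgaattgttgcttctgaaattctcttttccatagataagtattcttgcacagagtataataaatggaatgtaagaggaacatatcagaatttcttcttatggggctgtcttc

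Searched on both strands, the TATA box sequence TATAAA was found in 120 of 243 receptor start regions (49.4%), against 13.3% of those of all protein-coding genes. The homeodomain core TAATTA, a palindrome, was found in 60 (24.7%) against 4.69%. The site of the Olf/Ebf factors of olfactory neurons was found in 6 (2.47%) against 4.66%. Start regions of the olfactory receptors on chromosome 7 had TATAAA in 42.6%, TAATTA in 13.4% and the Olf/Ebf site in 3.83%. Those on the remaining chromosomes had them in 36.4%, 17.9% and 4.47%. TATAAA was found in 3 of 27 start regions of cluster 1 (11.1%), 103 of 186 of cluster 2 (55.4%) and 14 of 30 of cluster 3 (46.7%). Receptors with and without calls in their windows had TATAAA in 51.6% and 48.0% of start regions and a median AT content of 67.0% and 67.3%. Matches are descriptions of sequence, and the first pair of motifs consists of A and T, which are frequent here. Most receptor start regions lie around the start codon and not necessarily around the start of transcription. Whether those of other genes lie likewise was not examined. The parts of position and base composition in the shares of all motifs were not tested.

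Single receptor genes had few calls. At least 1 call in any list was found for 104 of the 287 genes (36.2%, 30.7% to 42.1%, exact binomial interval), and 183 had none. The share was 63.9% of all protein-coding genes, whose bodies have a median of 17169 bp, and 25% of the 2583 with a body of at most 2000 bp. These 2583 short genes include olfactory receptors. With a body of at most 1100 bp there are 242 on chromosome 2, 197 on chromosome 7 and 467 on the remaining chromosomes. By list, 13, 25 and 15 receptors had a call in M (4.53%, 8.71% and 5.23%) and 60, 14 and 3 in RS (20.9%, 4.88% and 1.05%). Of all protein-coding genes, 14.9%, 22.9% and 27.6% had one in M and 47.6%, 22.2% and 16.8% in RS. Of the 2583 short genes, 2.71%, 4.53% and 5.03% had one in M and 13.5%, 3.21% and 1.28% in RS. Among the 45 receptors with a body over 1100 bp, 25 had a call, and among the 242 shorter ones 79 had one, so the share was higher among the longer genes. The count of 104 was 59 without flanks, 225 with flanks of 5000 bp and 25 where a call needed over 6 implied reads.

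Most of these genes were seen in a single list. Of the 104, 83 had calls in 1 list, 17 in 2 and 4 in at least 3 (1.39% of the receptors, against 22.8% of all protein-coding genes and 0.619% of the short ones). Of the 645 short genes with a call, 537 likewise had calls in 1 list and 92 in 2. Among the 13988 protein-coding genes with a call, 5597 had calls in 1 list and 3410 in 2. Calls in RS lists and in no M list were found for 55 receptors (19.2%), against 23.3% of all protein-coding genes and 13.7% of the short ones. The reverse was found for 34 (11.8%), against 8.94% and 8.13%. Both stages had calls at 15 of the 287, against 6935 of 21887 protein-coding genes and 81 of the 2583 short ones. These shares are not adjusted for the length of the lists. At 0 receptors did all 3 RS rates lie above all 3 M rates, and at 0 did the reverse hold, against 1.57% and 0.795% of all protein-coding genes. Among the 2583 short genes the counts were 1 (0.0387%) and 0, so 0 of 287 is near the level of short genes, a set that includes olfactory receptors.

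The 4 receptors with calls in at least 3 lists were Olfr1184, Olfr1280, Olfr32 and Olfr1258. Olfr1184 (chromosome 2 from 88486734 to 88487669) had 4, 0 and 2 calls in M against 0, 2 and 0 in RS. Its calls of M at 0.5 U and of RS at 1 U formed 1 position inside the body, 123 to 228 bp after the gene start, and those of M at 2 U lay 503 to 523 bp after it. It was therefore called in both stages, and in neither at every amount.

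Olfr1280, the gene with the 60182 bp body, had 0, 4 and 0 calls in M against 6, 1 and 0 in RS, the most calls of any receptor here (11). They formed 7 positions, from 9802 to 46717 bp after the gene start. Olfr32 had 0, 1 and 1 calls in M against 2, 1 and 0 in RS, and Olfr1258 had 1, 0 and 0 in M against 1, 1 and 0 in RS. Both of these have bodies of several kb, and every call of theirs was a position of its own.

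Receptors with a higher rate in RS were mostly called in 1 or 2 lists. Olfr342 had 2 calls in RS at 0.5 U and 2 at 2 U, with 0 in M, the largest difference of the mean rates (2.83 calls per 100000). Olfr153 had 3 calls in RS at 1 U at 1 position in its body, and Olfr987 had 2 at 0.5 U and 2 at 1 U. Olfr341 had 2 and 1 at the same amounts. Olfr1023, Olfr1033, Olfr1189 and Olfr1024 had 6, 5, 4 and 3 calls, all in RS at 0.5 U, the longest list. Olfr1121 had 2 calls in RS at 2 U, of the 5 that this list held in all receptor windows.

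Receptors with a higher rate in M beside Olfr1184 were likewise each called at few amounts. Olfr996 had 4 calls in M at 2 U, at 2 positions, and 0 elsewhere. Olfr1289 and Olfr1290, close together in cluster 3, had 3 calls each in M at 1 U, and each formed 1 position. Olfr365 had 1, 0 and 2 calls in M and 0 in RS. Olfr1036 had 3 calls in M at 1 U and 1 in RS at 0.5 U, Olfr1213 had 2 in M and 3 in RS at 0.5 U, and Olfr1102 had 2 in M at 2 U and 1 in RS at 0.5 U. The longest receptors without any call were Olfr1223 (7251 bp), Olfr1506 and Olfr1565 (7077 bp each) and Olfr1241 (5850 bp), all in cluster 2.

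**Figure D5:**
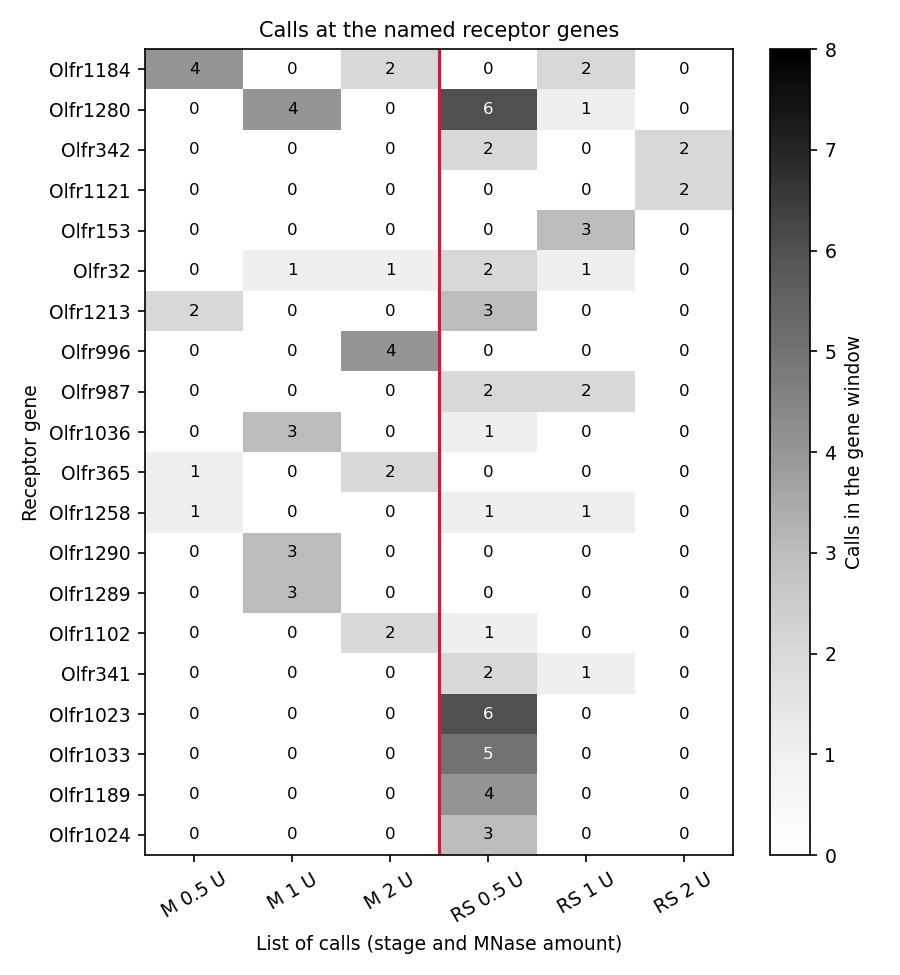
Calls in the gene window (number in each cell, darker for more) for 20 receptor genes (y axis) in the 6 lists (x axis; the red line divides M from RS). No gene has calls in every list of a stage, and Olfr1280 and Olfr1023 reach 6 calls in RS at 0.5 U.

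Receptors were also grouped by the older MOR names, in which genes of 1 number form a family by sequence; 280 genes had such a name and 12 families had at least 8 members. The share with a call ran from 0 of 9 in MOR185 to 7 of 14 in MOR231 and 4 of 8 in MOR232. It was 36.2% of all 287 receptors and 25% of protein-coding genes of at most 2000 bp, receptors included. MOR225, the family of Olfr1184, had 14 calls over 11 genes, or 40.2 per 100 kb of window, the highest density of the 12. Olfr1184 alone held 8 of these 14 calls. MOR245, the largest with 22 genes, had 0, 8 and 0 calls in M against 5, 1 and 0 in RS. MOR136, the largest family of cluster 1, had 0 calls in M and 7, 1 and 2 in RS. Members of a family share sequence and often lie side by side, so they are not independent.

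Few positions in the clusters were called in several lists. When calls of all lists were joined within 73 bp, the clusters held 884 positions, of which 11 (1.24%) came from at least 2 lists and 2 (0.226%) from at least 3. Elsewhere on chromosome 2 the shares were 1.86% and 0.225% of 15991 positions, and 1.74% and 0.119% without dense bins. The most frequent position lay in cluster 2 at 86342017 to 86342221, 4605 bp from Olfr1055 and in no annotated gene. It had 3, 0 and 3 calls in M against 3, 3 and 2 in RS, with up to 11 implied reads, so it was found in both stages. The other with at least 3 lists lay at 85895177 to 85895371, 7537 bp from Olfr1023, with 0, 3 and 2 calls in M against 3, 0 and 0 in RS. The position in Olfr1184 was the only one of at least 2 lists in a receptor window. Next came 3 positions of 2 lists each, at 89317147 to 89317331 near Olfr1232, 36899797 to 36900011 near Olfr354 and 87129862 to 87130056 near Olfr1110. Each of these 3 was called in 1 list of M and in RS at 1 U.

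Genes of receptor signalling in olfactory neurons, together with regulators and helper proteins of receptor expression, were counted from a list of 21. Of these, 13 had calls (61.9%, against 63.9% of all protein-coding genes), and 8 had them in at least 3 lists (38.1% against 22.8%). Their bodies are longer, with a median of 47549 bp against 17169 bp. Ebf1, which encodes a factor that binds near receptor genes, had 6, 8 and 12 calls in M against 30, 13 and 5 in RS over a body of 389997 bp. It held 74 of the 290 calls of the list. Ano2, a chloride channel of the odour response, had 3, 9 and 11 in M against 17, 7 and 10 in RS. Lhx2, a homeodomain factor gene on chromosome 2, had 0, 4 and 0 in M against 4, 0 and 0 in RS. Omp, Rtp1, Rtp2, Cnga2 and Cnga4, which are smaller, were among the 8 with none. The stage ratio over this list was 0.61 (0.23 to 0.99) and positive at 3 of 3 amounts. Over all protein-coding genes it was 0.18 (0.16 to 0.20), also positive at 3 of 3 amounts, and over the receptor windows it was -0.34. The differences were not tested.

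Near-identical copies can affect how reads were placed, which is not given in the sources used here. Of the 243 start regions, 35 shared at least 1 run of 50 bases with the start region of another protein-coding gene. Of these, 4 shared at least 50% of such runs, among them Olfr1506 and Olfr1565 with 100% each and no call. Calls in the window were found for 10 of the 35 receptors with a shared run (28.6%) and for 81 of the other 208 (38.9%). The mice were SV129 and the build is that of C57BL/6J, and differences in gene copies between the strains were not analysed here.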

How the data were processed

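MNase-seq was measured in 12 samples in 6 groups (2 stages, 3 MNase amounts, 2 samples each). Per the submitters' processing notes, STAR 2.5.2a and GRCm38/mm10 were used; the nucleosome caller is not given in the sources used here. Each list was made by the authors from the pair of samples of its group, per the series design text. The deposited lists hold 140 bp intervals with a p-value per call by the authors and no read counts, so sequencing depth is unknown. Implied reads come from matching the p-values to Poisson tails (minimum 6 reads; mean 0.409 to 0.696 reads per window).

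Computed here with Python 3.11.15, numpy 2.4.6, scipy 1.17.1 and pandas 2.3.3: calls were placed by midpoint (start plus 70 bp), gene windows had 1000 bp flanks, and overlapping windows were merged. Clusters joined genes up to 500 kb apart. Rates are per 100000 calls of the list; 0.5 was added to counts in log2 ratios. Stages were compared without a test, since a group has 1 list. Named genes are the 12 receptors with the highest mean rate, the 8 per direction with the largest stage difference among those with at least 3 calls, and the 4 longest without calls; named positions are the 6 found in most lists. Alternatives covered the threshold, joined calls, dense bins, denominators, flanks, cluster gaps and amounts. The match to Poisson tails and the stage ratio over receptor windows were tested on simulated data, with calls placed independently of each other. The other steps were not tested in this way. The members and lists were chosen with earlier results of these data known.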

Additional observations from a re-analysis of the deposited data

Results flagged for a closer look

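Clusters 1 and 3 moved in opposite directions in the 2 stages when 2 U was set against 0.5 U. In cluster 1 the log2 ratio was 0.83 in M and -0.77 in RS, and in cluster 3 it was 0.33 in M and -1.44 in RS. Each value comes from 1 list per amount, and the difference was not tested. The M interval of cluster 3 and the RS interval of cluster 1 include 0.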

How the results depend on the processing

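Over the receptor windows, the negative mean ratio of RS to M kept its sign under the 11 alternatives, between -0.86 and -0.10, and its interval excluded 0 at equal MNase per cell. Over the clusters it was negative under the 10 alternatives with intervals that exclude 0, and the size moved: it was -1.61 with calls of more than 6 implied reads, -1.02 without 0.5 U, -0.25 without 2 U and -1.15 at equal MNase per cell. The windows' ratio of 2 U to 0.5 U in RS was -2.79 with calls of more than 6 reads, where RS at 2 U had none and the value rests on the added 0.5, and in M 1 U over 0.5 U gave 0.70. Without flanks the RS ratio of 2 U to 0.5 U was -0.42 (-1.69 to 0.86). Receptors with a call numbered 59 without flanks, 225 with flanks of 5000 bp and 25 with calls of more than 6 reads. With flanks of 5000 bp, 1 receptor, Olfr1217, had 3 M rates above all RS rates. The body to flank ratio was 3.70 without RS at 0.5 U and 1.69 to 2.05 under 7 other alternatives, and 1.61 with calls of more than 6 reads, where the interval includes 1. Among the 24 named receptors, the sign of the stage difference turned for Olfr1280 with flanks of 5000 bp and with joined positions, and for Olfr1102 without flanks; of the 20 that have calls, 9 had none of more than 6 reads. The causes of these moves were not tested. No paired analysis was possible because each list joins both samples of a group, and for the same reason no sample could be left out. With most calls at 6 reads, 1 read more or fewer decides a single call.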
